A study of Mus musculus with 2 samples.

Results

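The colony-stimulating factors and their receptors were examined in single-cell RNA sequencing of Lewis lung carcinoma (LLC) tumors. The set was chosen by gene name and held 8 of the 32285 genes in the gene list of the matrices. It comprised the ligand genes Csf1, Il34, Csf2 and Csf3 and the receptor genes Csf1r, Csf2ra, Csf2rb and Csf3r. Csf2rb2, the paralog of Csf2rb on the same chromosome, was read beside them and is not one of the 8.

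LLC is a mouse lung cancer cell line that grows as a subcutaneous tumor in C57BL/6 mice. The sGC Ctr library came from Gucy1b1 flox/flox mice and the sGC ∆PC library from Cspg4-CreERT2::Gucyc1b1 flox/flox mice, the second gene name being the labels' spelling of Gucy1b1, which encodes the β subunit of soluble guanylate cyclase (sGC), the receptor for nitric oxide. Both groups carried the floxed allele, were given tamoxifen 5 times when 4 weeks old and were injected with LLC cells under the skin at 8 weeks, and the tumors were taken 2 weeks later. The Cre is driven by Cspg4, which encodes NG2, a proteoglycan found on pericytes and also on some other cells. There was 1 library for each genotype, and each library pooled 3 tumors. For this reason no p-value was computed, and every interval given is a 95% interval for counting error only.

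The libraries held 15007 (sGC Ctr) and 25631 (sGC ∆PC) cell barcodes, of which 12220 and 22498 passed the quality filters. Their depth differed, with a median of 35776.5 unique molecular identifiers (UMIs, each standing for 1 captured mRNA molecule) per kept cell in sGC Ctr and 8685 in sGC ∆PC. The 2 libraries shared 131 barcodes, which were 0.87% and 0.51% of those deposited. The targeted gene Gucy1b1 made up 59 of the 496003 pericyte UMIs of sGC Ctr and 13 of the 323073 of sGC ∆PC. Cells were placed in classes by marker genes that included no colony-stimulating factor or receptor. At least 20 cells in each library were found for 10 classes, which are compared below: cancer cells (7108 and 10283 cells), macrophages (2298 and 3575), monocytes (450 and 441), granulocytes (275 and 318), dendritic cells (36 and 38), T cells (71 and 76), ECs (59 and 63), pericytes (40 and 42), fibroblasts (106 and 214) and osteoclast-like cells (54 and 105). Throughout, a pair of values is given as sGC Ctr first and sGC ∆PC second.

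Colony-stimulating factors are secreted proteins that control the production, survival and activity of myeloid cells. CSF1 and IL34 are alternative ligands of the receptor tyrosine kinase CSF1R, on which most macrophages depend. CSF2 (GM-CSF) acts through a specific α chain, CSF2RA, and the common β chain, CSF2RB, which is shared with the receptors for IL-3 and IL-5. CSF3 (G-CSF) acts through CSF3R, the receptor that drives neutrophil production. In tumors, these factors can come from cancer cells, stromal cells or leukocytes, and they recruit and instruct tumor-associated macrophages and neutrophils.

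To show what sequence lies upstream of these genes, the RefSeq promoter windows (GRCm38.p6; 250 bases before the start site and 50 after it, on the strand of the gene) were searched on both strands for 3 motifs of myeloid and inflammatory factors. These were GAGGAA (the core bound by PU.1), TTGCNNAA (C/EBP) and TGANTCA (AP-1). Windows of 5 of the 9 genes were searched, namely Csf1, Csf2, Csf2ra, Csf2rb2 and Csf3r. Il34, Csf2rb and Csf3 had no entry, and Csf1r was left out of the search. The 3 receptor genes that are expressed by leukocytes are printed because each held GAGGAA, and Csf1 is printed as the ligand gene that held none of the 3 motifs. Capitals mark GAGGAA or its reverse complement.
Csf3r, chr4:126024409-126024708, plus strand: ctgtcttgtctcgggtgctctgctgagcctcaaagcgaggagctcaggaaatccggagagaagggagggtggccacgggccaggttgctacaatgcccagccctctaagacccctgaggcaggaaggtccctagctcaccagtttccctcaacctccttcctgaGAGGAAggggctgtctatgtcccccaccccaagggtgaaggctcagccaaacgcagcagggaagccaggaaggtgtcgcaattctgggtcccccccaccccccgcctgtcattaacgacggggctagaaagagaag
Csf2ra, chr19:61228369-61228668, minus strand: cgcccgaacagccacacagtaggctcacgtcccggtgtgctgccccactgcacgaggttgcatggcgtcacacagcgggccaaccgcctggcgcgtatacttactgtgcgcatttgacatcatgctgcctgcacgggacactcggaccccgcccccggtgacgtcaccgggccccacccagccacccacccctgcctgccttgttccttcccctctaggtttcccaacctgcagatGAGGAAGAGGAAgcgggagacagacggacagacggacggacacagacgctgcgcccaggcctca
Csf2rb2, chr15:78305672-78305971, minus strand: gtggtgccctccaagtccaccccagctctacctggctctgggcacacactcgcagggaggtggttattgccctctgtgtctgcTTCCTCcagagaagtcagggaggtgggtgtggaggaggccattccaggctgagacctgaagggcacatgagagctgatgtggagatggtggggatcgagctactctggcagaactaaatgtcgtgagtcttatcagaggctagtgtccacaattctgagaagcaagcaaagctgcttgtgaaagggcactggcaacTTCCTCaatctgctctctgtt
Csf1, chr3:107760420-107760719, minus strand: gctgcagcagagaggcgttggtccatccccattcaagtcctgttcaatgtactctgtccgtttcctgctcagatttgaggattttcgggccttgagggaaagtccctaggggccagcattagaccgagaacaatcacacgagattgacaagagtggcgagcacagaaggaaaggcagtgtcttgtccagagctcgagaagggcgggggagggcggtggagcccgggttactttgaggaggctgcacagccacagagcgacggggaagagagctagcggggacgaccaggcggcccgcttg
In Csf3r the motif began 86 bases before the start site of the RefSeq window. The gene coordinates given further below come from another annotation, whose starts can differ. There Csf3r begins at 126024550, ahead of the motif. In Csf2ra the motif occurred 2 times in a row, 14 and 8 bases before the start site of the window. In Csf2rb2 it lay 167 bases before and 29 bases after that site. GAGGAA was present in 28.27% of all 32817 promoter windows of this length, so a match is common and is given as a description. Csf2 held TTGCNNAA 145 bases before its start site, as did 10.81% of all windows, and TGANTCA, found in 7.81% of all windows, was in none of the 5.

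To investigate which cells transcribed the ligands of CSF1R, the UMIs of Csf1 and Il34 were summed over each class and divided by all UMIs of the class (CPM). Csf1 (chromosome 3, 107741048 to 107760469, minus strand, GRCm38) was found at its highest level in granulocytes, with 125 and 120 UMIs or 211 (interval 176 to 251) and 179 (148 to 214) CPM. Fibroblasts followed with 93.0 and 107 CPM from 212 and 193 UMIs, and cancer cells with 54.6 and 58.0 CPM from 21923 and 18375 UMIs. The level in granulocytes was 2.27-fold and 1.66-fold that in fibroblasts, and fibroblasts were 1.70-fold and 1.85-fold above cancer cells. The intervals of these 3 classes did not overlap in either library. Pericytes (24.2 and 18.6 CPM), ECs (12.3 and 11.3 CPM), monocytes (9.27 and 15.7 CPM) and macrophages (6.80 and 10.2 CPM) were lower. The order by amount was different from the order by level, since cancer cells held 90.0% and 83.5% of all Csf1 UMIs in the kept cells. They held 84.2% and 76.8% of the UMIs of all genes there, so the Csf1 share was near that of all genes.

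The Csf1 UMIs of granulocytes were spread over 62 of 275 and 48 of 318 cells. Cells of at least 2000 UMIs were then thinned to 2000 UMIs, and shallower cells were left out. This evens the depth of the cells kept, but not which cells are kept in each library. A Csf1 UMI was found in 19.9% and 16.9% of granulocytes (146 and 166 cells deep enough), 12.9% and 12.3% of fibroblasts and 10.5% and 9.31% of cancer cells. It was found in 1.64% and 2.49% of macrophages. RNA of the cancer cell marker list in granulocytes was 18.39% and 20.66% of its level in cancer cells, and its part in the Csf1 level was not tested. In T cells, Csf1 had 5 UMIs in 4 cells of sGC Ctr and 25 UMIs in 13 cells of sGC ∆PC, or 19.6 and 71.2 CPM.

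Il34 (chromosome 8, 110741829 to 110805924, minus strand) was concentrated in pericytes, the mural cells that wrap capillaries. Its 36 and 29 UMIs there gave 72.6 (50.8 to 100.5) and 89.8 (60.1 to 129) CPM, in 21 of 40 and 14 of 42 cells. With classes taken from clusters the levels were 41.4 and 35.6 CPM, and after thinning to 2000 UMIs that of sGC ∆PC was 167 CPM. In the pericyte cluster, 47.1% of cells were in a gated class, and 70.4% of those were pericytes. In the gated classes, all UMIs used, pericytes were at 10.3-fold and 13.4-fold the level in the next class, the fibroblasts (7.02 and 6.68 CPM from 16 and 12 UMIs). Cancer cells were at 6.95 and 6.30 CPM, which did not differ from fibroblasts beyond the intervals. They held 89.7% and 80.6% of all Il34 UMIs, beside 84.2% and 76.8% of the UMIs of all genes. Macrophages had 15 and 30 UMIs (0.548 and 1.18 CPM), and dendritic cells had 0. The antisense genes Gm15894 and Gm15895 overlap Il34. Gm15894 had 36 and 35 UMIs in cancer cells and 0 in pericytes, and whether the counting used strand is not given in the sources used here.

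To examine the receptor of these ligands, Csf1r (chromosome 18, 61100598 to 61132149, plus strand) was read in classes whose gates did not use it. It had its highest level in osteoclast-like cells, a small class within the macrophage lineage that was gated on Ctsk, Mmp9, Acp5, Atp6v0d2, Ocstamp and Dcstamp, genes of bone-resorbing cells. There it had 759 and 565 UMIs, or 825 (767 to 886) and 591 (543 to 642) CPM. Macrophages had 11858 and 8939 UMIs, or 433 (426 to 441) and 352 (344 to 359) CPM, and monocytes 876 and 740 UMIs, or 312 (292 to 334) and 277 (257 to 297) CPM. Osteoclast-like cells were 1.90-fold and 1.68-fold above macrophages, macrophages were 1.39-fold and 1.27-fold above monocytes, and none of these intervals overlapped within a library. This order depended on the gate: with classes taken from clusters, osteoclast-like cells were at 398 and 242 CPM and Csf1r was highest in macrophages. That osteoclast-like cluster was mixed, with 45.9% of its cells in a gated class and 76.5% of those in the osteoclast-like class. In the gated classes, monocytes were followed, after a gap of 5.61-fold and 7.15-fold, by granulocytes (55.7 and 38.7 CPM).

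Per cell, a Csf1r UMI was present in 92.2% and 60.8% of macrophages when all UMIs were used, and in 55.1% (53.0 to 57.2) and 45.9% (43.9 to 47.9) when cells were thinned to 2000 UMIs. The thinning left out 38 and 1163 macrophages that were shallower. In osteoclast-like cells the thinned shares were 75.9% (41 of 54 cells) and 45.6% (36 of 79 cells), with 96.3% and 72.4% unthinned. T cells, which should lack the gene, had thinned shares of 1.67% and 2.86%, at a median of 2991 and 3711 UMIs per cell beside 10948 and 3792 in macrophages. Cancer cells held Csf1r at 1.01% and 2.02% of the macrophage level. The macrophage marker list stood at 0.51% and 1.21% of its own level in macrophages. Cells of other lineages high in this list were set aside, so the gate itself kept its share low. Ctss, Tyrobp, Fcer1g, Laptm5, Cd14, Ctsc, Aif1 and Cyba were kept out of the gate to follow macrophage RNA. Together they had 95474 of 401350090 and 99554 of 316583077 UMIs in cancer cells. In macrophages they had 290735 of 27354686 and 246646 of 25425773 UMIs. In fibroblasts, Csf1r was at 6.27% and 4.12% of the macrophage level and the macrophage marker list at 1.56% and 2.24%. The part of carried-over macrophage RNA was not tested. The end of Csf1r overlaps Hmgxb3 on the opposite strand, which was at 12.5 and 12.6 CPM in macrophages and 11.7 and 11.1 CPM in cancer cells.

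**Figure D1:**
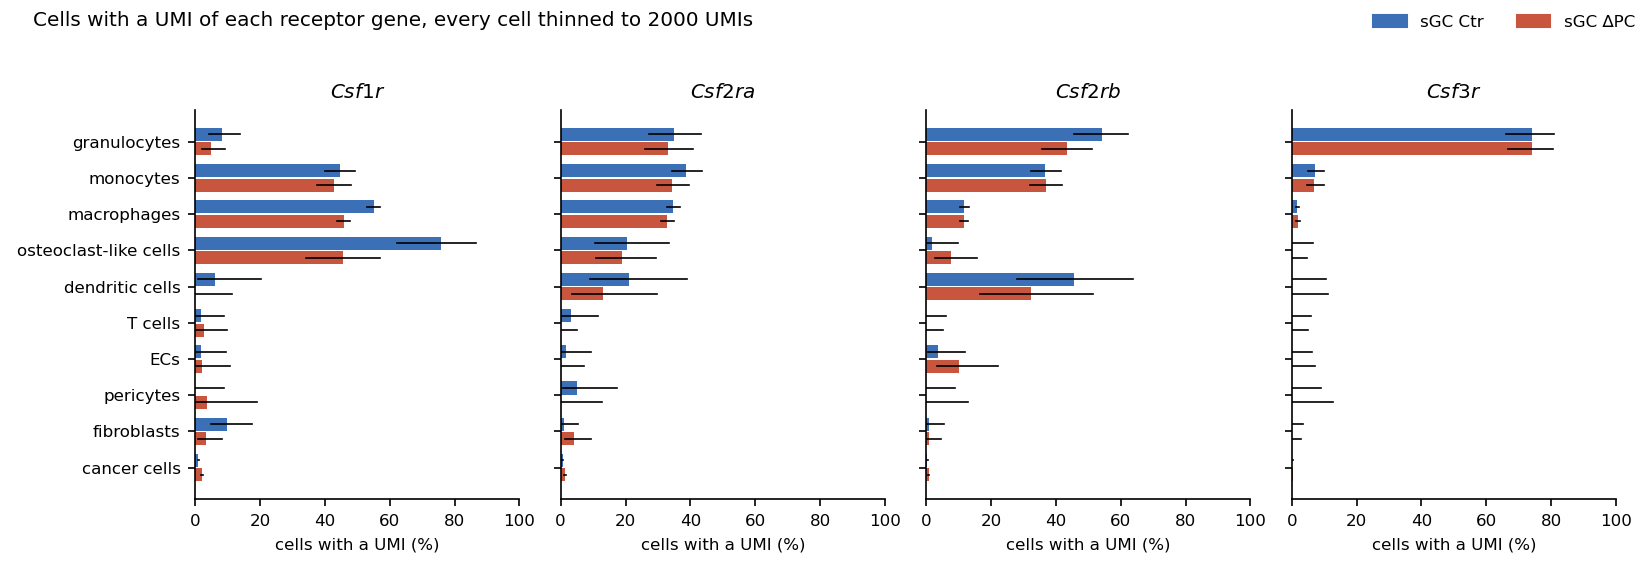
Percent of cells with at least 1 UMI of each receptor gene after thinning to 2000 UMIs, by class and library, with shallower cells left out. Bars are the shares and lines their exact binomial 95% intervals. Csf3r is found in 74.0% and 74.1% of granulocytes and 7.17% and 6.99% of monocytes, and Csf2rb in 0 of 60 and 0 of 70 T cells.

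CSF2 was the least detected ligand. Csf2 (chromosome 11, 54247271 to 54249667, minus strand) had 32 and 14 UMIs in cancer cells, in 8 and 13 cells, and 1 sGC Ctr cell held 13 of the 32. The level was 0.0797 and 0.0442 CPM, and 0.12 and 0.080 CPM with cells of under 5% mitochondrial UMIs only. The other 9 classes had 0 UMIs. For macrophages, a count of 0 allows a level of up to 0.110 and 0.118 CPM, set at 3 UMIs. The same limit was 5.06 and 4.46 CPM in granulocytes and 11.8 CPM in T cells of sGC Ctr. These limits lie above the level in cancer cells, so the counts cannot show which class was highest in Csf2. Outside the 10 classes, 1 UMI was found in NK lymphocytes and 1 in mast cells and basophils, both in sGC Ctr. T cells and NK lymphocytes are known sources of GM-CSF, but with 71 and 76 T cells the level in them was not detectable at this depth.

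The 2 chains of the GM-CSF receptor were distributed differently. Csf2ra (chromosome 19, 61223957 to 61228429, minus strand), the ligand-specific α chain, was at a like level in granulocytes, monocytes and macrophages. It had 258 and 254 CPM in granulocytes (153 and 171 UMIs), 271 and 236 CPM in monocytes (759 and 630 UMIs) and 223 and 222 CPM in macrophages (6093 and 5637 UMIs), and the intervals of granulocytes and monocytes overlapped. In sGC Ctr the interval of monocytes (252 to 291 CPM) lay above that of macrophages (217 to 228 CPM), while in sGC ∆PC they overlapped. Dendritic cells (141 and 139 CPM) and osteoclast-like cells (126 and 98.3 CPM) were lower. Granulocytes, monocytes and macrophages also had like thinned shares of cells with a Csf2ra UMI, at 34.9% and 33.1%, 38.8% and 34.4%, and 34.6% and 32.9%; T cells had 3.33% and 0%, the latter 0 of 70 cells.

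Csf2rb (chromosome 15, 78325752 to 78353847, plus strand), the common β chain, varied more among the same cells. Granulocytes had 430 (379 to 487) and 347 (304 to 394) CPM, dendritic cells 369 (302 to 447) and 270.4 (210.0 to 343) CPM, and monocytes 264 (245 to 283) and 229 (211 to 248) CPM. The intervals of granulocytes and dendritic cells overlapped, as did those of dendritic cells and monocytes in sGC ∆PC. These intervals count each UMI as independent. Of the dendritic cells, 1 of 36 held 18 of 105 Csf2rb UMIs in sGC Ctr, and 1 of 38 held 13 of 68 in sGC ∆PC. Macrophages had 66.4 and 69.4 CPM from 1815 and 1764 UMIs. Csf2rb in monocytes was thus at 397% and 329.8% of the macrophage level, and Csf2ra at 122% and 106% of it. A Csf2rb UMI was found in 54.1% and 43.4% of granulocytes, 36.8% of monocytes in each library and 11.7% and 11.6% of macrophages after thinning.

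ECs carried Csf2rb with little Csf2ra. The 88 and 53 Csf2rb UMIs of ECs lay in 35 of 59 and 22 of 63 cells and gave 60.0 (48.1 to 73.9) and 49.9 (37.4 to 65.3) CPM, which was 90.5% and 71.9% of the macrophage level. Csf2ra had 4 and 6 UMIs in ECs, or 1.23% and 2.55% of the macrophage level. The macrophage marker list, which the gate kept low in ECs, stood at 0.55% and 0.95%. After thinning, a Csf2rb UMI was found in 3.51% and 10.2% of ECs and in 0 of 60 and 0 of 70 T cells, which allows a share of cells with a UMI of up to 5.0% and 4.29% when set at 3 counts, while the exact intervals reach 5.96% and 5.13%. Il3ra, which encodes the α chain of the IL-3 receptor and was looked up in ECs after these values were seen, was at 63.4 and 61.2 CPM in them. Pericytes had 0 and 1 Csf2rb UMIs and fibroblasts 3 and 4. Csf2rb2 (chromosome 15, 78282507 to 78305721, minus strand), the mouse-specific second β chain for IL-3, lies 20030 bases from Csf2rb. It was highest in dendritic cells (70.3 and 67.6 CPM), granulocytes (50.6 and 47.6 CPM) and monocytes (46.4 and 38.5 CPM), with 28.6 and 21.7 CPM in ECs. Of all runs of 91 bases in the longest transcripts of the pair, 8.05% of Csf2rb and 8.32% of Csf2rb2 occurred in the other, but none within the last 500 bases.

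CSF3 came from few cells. Csf3 (chromosome 11, 98701263 to 98703629, plus strand) had 669 and 546 UMIs in cancer cells, or 1.67 (1.54 to 1.80) and 1.72 (1.58 to 1.88) CPM. These were 87.9% and 65.3% of the Csf3 UMIs in the kept cells, where cancer cells held 84.2% and 76.8% of the UMIs of all genes. The Csf3 UMIs of cancer cells lay in 112 of 7108 and 212 of 10283 cells. The cell richest in Csf3 held 103 (sGC Ctr) and 41 (sGC ∆PC) UMIs, which were 15.4% and 7.5% of the total. Granulocytes had 8 UMIs in 5 cells and 1 UMI in 1 cell, ECs 6 UMIs in 1 cell and 0, and monocytes 0 and 9 UMIs. The level of these classes (13.5 and 1.49 CPM in granulocytes) therefore rested on a handful of molecules, and their intervals overlapped with those of cancer cells in sGC ∆PC.

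The cancer cells with at least 2 Csf3 UMIs numbered 57 and 63, or 0.802% and 0.613% of cancer cells, and held 91.8% and 72.7% of the Csf3 UMIs. Csf2 was found in 5 of the 57 (8.77%, interval 2.91 to 19.3) and 3 of the 63 (4.76%, 0.993 to 13.3), as against 3 of 6996 (0.0429%) and 6 of 10071 (0.0596%) cancer cells with no Csf3. Among cancer cells with exactly 1 Csf3 UMI, Csf2 was found in 0 of 55 and 4 of 149 (2.68%, 0.736 to 6.73). The cells with at least 2 were deeper, with a median of 70072 and 54709 UMIs compared with 50869.5 and 16907, and the part of depth in this was not tested. In CPM, which is scaled by depth, Csf1 was at 121 and 89.5 in them and at 53.6 and 57.5 in cancer cells with no Csf3. Of the related growth factors and inducers read in the same cells, the following are given as examples chosen after their values were seen. Lif was at 21.7 and 24.0 against 2.86 and 3.11 CPM, Il11 at 53.5 and 37.3 against 13.7 and 18.0 CPM, and Il33 at 208 and 213 against 59.7 and 92.5 CPM. Nfkb1, a subunit of the NF-κB transcription factor, was at 118 and 115 against 50.5 and 51.7 CPM. Il34 (5.37 and 5.17 against 6.98 and 6.32 CPM) and Kitl (45.8 and 57.4 against 80.7 and 85.8 CPM) were lower.

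**Figure D2:**
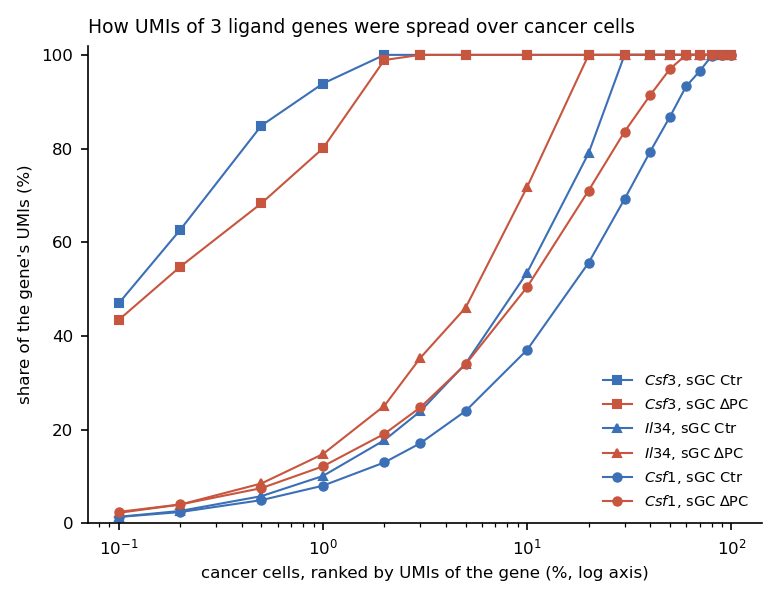
Share of all UMIs of a ligand gene in cancer cells (y axis, percent) held by the cells with the most UMIs of it (x axis, percent of cancer cells, log scale), for Csf1, Il34 and Csf3 in each library. The 1% of cells with the most UMIs hold 93.9% and 80.0% of the Csf3 UMIs but 8.0% and 12.2% of those of Csf1.

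Csf3r (chromosome 4, 126024550 to 126044440, plus strand) marked granulocytes. Its 516 and 504 UMIs there gave 871 (797 to 949) and 750.0 (686 to 818) CPM, which were 25.2-fold and 21.3-fold the level in monocytes (34.6 and 35.1 CPM). Macrophages were at 7.42 and 10.9 CPM from 203 and 278 UMIs, fibroblasts had 0 and 5 UMIs, and T cells 0. A Csf3r UMI was found in 74.0% (108 of 146) and 74.1% (123 of 166) of granulocytes after thinning, for which 129 and 152 granulocytes were too shallow; with all UMIs the shares were 76.7% and 64.8%. Cancer cells had 0.665 and 1.17 CPM, or 0.08% and 0.16% of the granulocyte level. The granulocyte marker list, which the gate kept low in other classes, was at 0.03% and 0.10%.

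To find out whether the receptors were held by the same cells, pairs of them were counted after thinning to 2000 UMIs. In granulocytes, Csf2ra and Csf2rb were both found in 21.2% and 15.1% of cells, where the product of their separate shares was 18.9% and 14.4%. In macrophages, both chains were found in 4.51% and 4.23% of cells, with a product of 4.06% and 3.81%, and in monocytes in 12.8% and 11.3%, with a product of 14.3% and 12.7%. Csf3r and Csf2rb were found together in 41.1% and 34.3% of granulocytes (product 40.0% and 32.1%). Csf1r and Csf2ra were found together in 19.5% and 15.5% of macrophages (product 19.1% and 15.1%). The exact interval of each of these joint shares took in the product of the separate shares.

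To compare the genotypes, the level of each gene in sGC ∆PC was divided by that in sGC Ctr within a class, and a gene was counted as past the limit when it differed at least 2-fold and had at least 50 UMIs in both libraries together. With 1 library of pooled tumors for each genotype, such a ratio describes these libraries, and genotype, tumors, library and depth cannot be told apart. In macrophages, 5 of the 8 genes could be compared and 0 were past 2-fold, where 1.55% of all 11877 genes were. Csf1r was lower in sGC ∆PC, at 352 against 433 CPM, a log2 ratio of -0.30 (-0.34 to -0.26). Csf2ra (log2 ratio -0.01, -0.06 to 0.05) and Csf2rb (0.06, -0.03 to 0.16) were level to within these intervals. Csf1 (0.58, 0.31 to 0.86) and Csf3r (0.56, 0.29 to 0.83) were higher, on 186 and 259 and on 203 and 278 UMIs. The median log2 ratio of the 5 was 0.06 and that of all genes tested -0.05. Beside the lower Csf1r, the macrophage marker list had a median of 146 and 91.5 UMIs per 10000 in these cells. Beside the higher Csf1, cancer cell marker RNA in macrophages was at 7.32% and 9.93% of its level in cancer cells; beside the higher Csf3r, granulocyte marker RNA was at 0.11% and 0.28% of its level in granulocytes. Their part in the ratios was not tested.

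**Figure D3:**
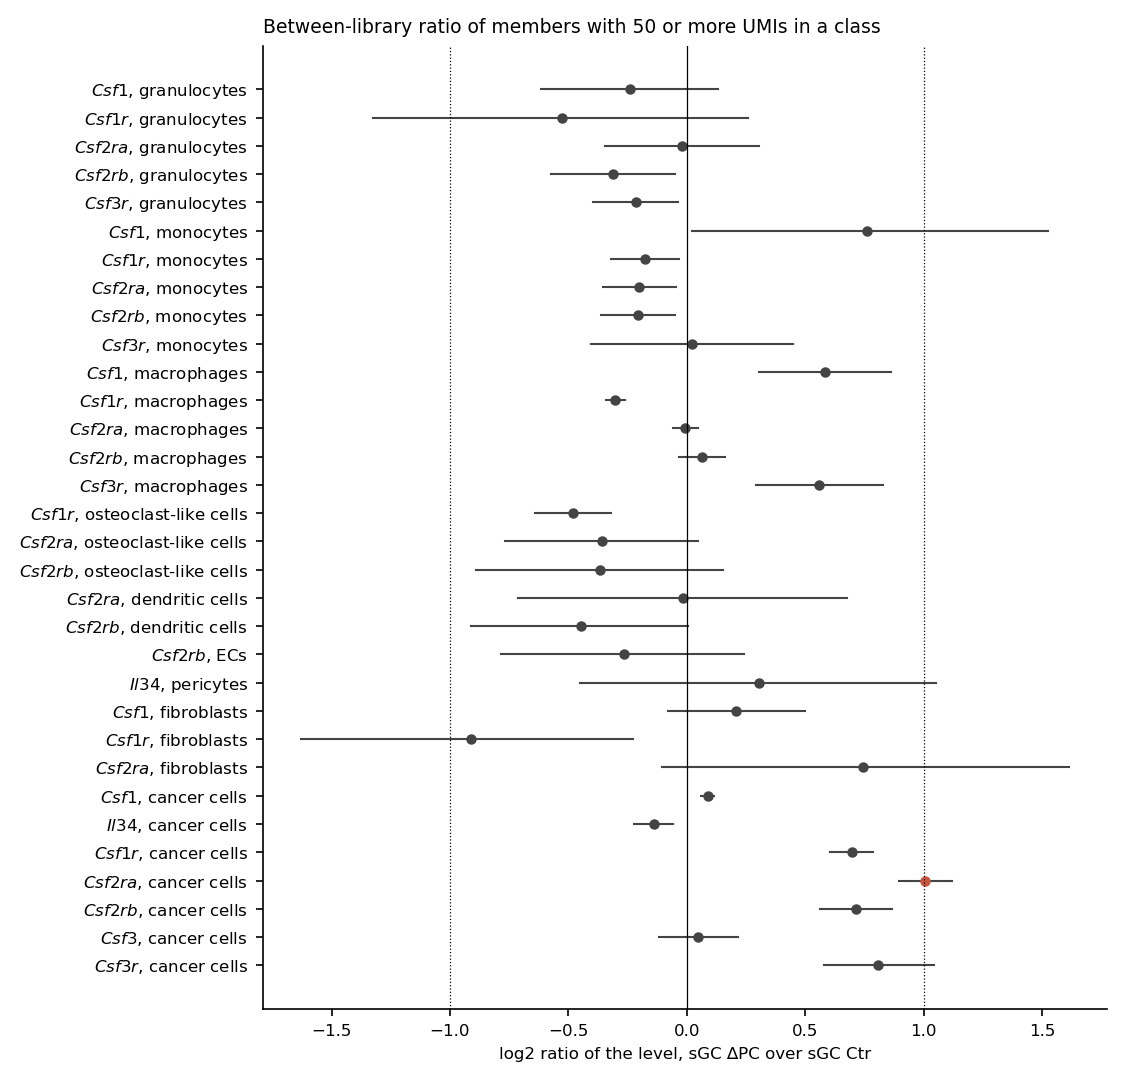
Log2 ratio of level, sGC ∆PC over sGC Ctr, for each gene with at least 50 UMIs in a class; bars are exact 95% intervals for counting error and dashed lines mark 2-fold. Csf2ra in cancer cells, at 1.01, is the one point past 2-fold, and all 5 granulocyte points lie below 0.

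In granulocytes, 5 genes were compared and 0 were past 2-fold, where 3.25% of all 2767 genes were. All 5 were at or below 0, from -0.02 (-0.34 to 0.30) for Csf2ra to -0.53 (-1.33 to 0.26) for Csf1r. The intervals of Csf2rb (-0.31, -0.57 to -0.05) and Csf3r (-0.22, -0.40 to -0.04) left out 0. After thinning to 2000 UMIs, Csf1 turned from -0.24 to 0.18 and Csf3r from -0.22 to 0.039. The median of the 5 was -0.24, and that of all genes -0.01. The granulocyte marker list was also lower, with a median of 654 and 428 UMIs per 10000. In monocytes, 5 genes were compared and 0 were past 2-fold (0.747% of all genes); Csf1r (-0.18), Csf2ra (-0.20) and Csf2rb (-0.20) were lower, Csf3r was at 0.02 and Csf1 at 0.76 (0.02 to 1.52) on 26 and 42 UMIs, and the monocyte marker list had a median of 52.3 and 47.4 UMIs per 10000. In osteoclast-like cells, 3 were compared and 0 were past 2-fold (2.01% of all genes), with Csf1r at -0.48 (-0.64 to -0.32), Csf2ra at -0.36 and Csf2rb at -0.37. After thinning to 2000 UMIs, Csf1r was at -1.08, past 2-fold. This class had the largest gap in depth among the myeloid cells, with a median of 15768 and 3299 UMIs. Its own marker list had a median of 169 and 122 UMIs per 10000 and the macrophage list one of 10.6 and 15.5, and their part was not tested.

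In cancer cells, 7 genes were compared and 1 was past 2-fold, where 3.37% of all 15132 genes were. Of the ligands that these cells make, Csf1 (log2 ratio 0.09, 0.06 to 0.12) and Il34 (-0.14, -0.22 to -0.06) differed little. Csf3 was at 0.05 (-0.12 to 0.21), but this interval counts each UMI as independent. The 1% of cancer cells with the most Csf3 held 93.9% and 80.0% of its UMIs, so the ratio rested on few cells. The receptor genes were higher in sGC ∆PC: Csf2ra at 1.01 (0.90 to 1.12), Csf3r at 0.81 (0.58 to 1.04), Csf2rb at 0.71 (0.56 to 0.87) and Csf1r at 0.70 (0.61 to 0.79). They were nevertheless low, from 0.665 CPM for Csf3r in sGC Ctr to 7.09 CPM for Csf1r in sGC ∆PC. The macrophage marker list in cancer cells went from 0.51% to 1.21% of its macrophage level at the same time, but the gate limited this list. The macrophage genes kept out of the gate had 95474 of 401350090 and 99554 of 316583077 UMIs in cancer cells. In macrophages they had 290735 of 27354686 and 246646 of 25425773 UMIs. The part of macrophage RNA in these ratios was not tested. Csf2 had 46 UMIs in all, under the limit of 50.

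In the smaller classes, 0 of the genes were past 2-fold. Dendritic cells had 2 compared (4.66% of all genes past 2-fold), with Csf2ra at -0.01 (-0.71 to 0.68) and Csf2rb at -0.45 (-0.91 to 0.01). Fibroblasts had 3 (2.16% of all genes), with Csf1 at 0.21 (-0.08 to 0.50), Csf2ra at 0.74 (-0.11 to 1.61) and Csf1r at -0.91 (-1.63 to -0.23) on 62 and 26 UMIs. The fibroblasts of the libraries differed in other ways, with a median of 20347 and 2228.5 UMIs per cell, 458 and 259 UMIs per 10000 of their own markers, and cancer cell marker RNA at 5.29% and 10.02% of its level in cancer cells. Pi16, a marker of adventitial fibroblasts, was at 322 and 79.1 CPM in them, and the part of these differences was not tested. ECs had 1 (1.46% of all genes), Csf2rb at -0.27 (-0.79 to 0.24). Pericytes, the class in which Gucy1b1 was targeted, had 1 (2.82% of all genes), Il34 at 0.31 (-0.45 to 1.05), an interval that takes in 0 and also reaches 2-fold. In T cells no gene had 50 UMIs (2.07% of all genes past 2-fold).

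The receptors also varied within a class. Macrophages were ranked in each library by the summed UMIs of a state list, and the 25% with the highest share (575 and 894 cells) were compared with the rest (1723 and 2681 cells). The division was made by rank and does not define types. For the MHC class II list (H2-Aa, H2-Ab1, H2-Eb1, Cd74, H2-DMb1), which serves antigen presentation, 2.65% and 4.42% of cells lay within 20% of the dividing value. That value was 11.2 UMIs per 10000 in sGC Ctr and 59.0 in sGC ∆PC. The high group was thus set at an unlike level of the list in each library. Csf2rb was higher in MHC class II high macrophages in both libraries, at 109 against 53.8 CPM in sGC Ctr and 104 against 57.9 CPM in sGC ∆PC, log2 differences of 1.01 (0.88 to 1.15) and 0.85 (0.71 to 0.99). Csf2ra was higher by 0.27 (0.19 to 0.35) and 0.46 (0.38 to 0.54), and Csf1r differed by 0.01 (-0.05 to 0.08) and 0.04 (-0.03 to 0.11). Csf3r was also higher, by 0.56 (0.11 to 1.01) and 0.52 (0.14 to 0.89), on 62 against 141 and 89 against 189 UMIs. The monocyte marker list was at 6.43 against 2.31 UMIs per 10000 in sGC Ctr and at 7.15 against 3.56 in sGC ∆PC in the same division, and the dendritic cell list at 0.20 against 0.05 and 0.18 against 0.11; their part was not tested.

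Resident-like macrophages, ranked on Mrc1, Folr2, Ccl8, Lyve1, Cd163 and F13a1, showed another pattern. Csf1r was higher in them, at 491 against 411 CPM and 389 against 335 CPM, log2 differences of 0.26 (0.20 to 0.31) and 0.22 (0.15 to 0.28). Csf2ra was lower by -0.21 (-0.30 to -0.13) in each library, and Csf2rb by -0.17 (-0.33 to -0.02) and -0.19 (-0.34 to -0.04). Csf3r was higher by 0.71 (0.28 to 1.13) and 0.55 (0.19 to 0.91), on 80 against 123 and 109 against 169 UMIs. In the same division the other macrophage markers were at 181 against 135 and 153 against 104 UMIs per 10000, and the monocyte list at 1.96 against 3.76 and 3.30 against 4.95; their part was not tested. In macrophages high in Gpnmb, Mmp12, Hmox1, Spp1, Fabp5 and Trem2, Csf1r was lower by -0.34 (-0.40 to -0.27) and -0.17 (-0.24 to -0.10), and the macrophage list stood at 139 against 160.1 and 118 against 126 UMIs per 10000. In macrophages highest in the proliferation list, Csf2rb was at 47.5 against 74.5 CPM and 48.6 against 73.5 CPM. The monocyte list was at 2.19 against 3.71 and 3.34 against 4.66 UMIs per 10000. These cells were the deeper part in sGC Ctr, with a median of 13278 against 10487 UMIs. In sGC ∆PC they were the shallower part, with 1821.5 against 6052. The dividing value was 2.21 and 4.49 UMIs per 10000, low enough for depth to affect who passes it, and the part of depth was not tested. For these 3 lists, 6.15% to 14.88% of cells lay near the dividing value. Each difference named for these lists had the same sign in both libraries, but those named were a choice among the genes. In macrophages highest in the proliferation list, Csf1 differed by -0.15 (-0.64 to 0.33) and 0.58 (0.13 to 1.00). Csf1r differed there by 0.02 (-0.04 to 0.08) and -0.14 (-0.23 to -0.06).

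Granulocytes were divided by 2 lists. In those highest in Mmp8, Ltf, Camp, Ngp, Lcn2 and Retnlg, genes of granule proteins made during neutrophil maturation, Csf1 was at 79.1 against 262 CPM and 117 against 201 CPM, log2 differences of -1.73 (-2.68 to -0.89) and -0.78 (-1.53 to -0.09). Csf3r was at 1047 against 803 CPM and 999 against 659 CPM in the same cells. The other granulocyte markers were at 1225 against 683 and 893 against 518 UMIs per 10000 in this division, and their part was not tested. In the granulocytes highest in Siglecf, Ccl3, Ccl4, Cstb, Spp1 and Il1rn, a list of tumor-associated neutrophils, the order was turned round, with Csf3r at 510.0 against 1003 CPM and 528 against 833 CPM and Csf1 at 283 against 184 CPM and 229 against 159.7 CPM. The interval of the last difference (log2 0.52, -0.06 to 1.08) took in 0. The granulocyte marker list moved along with Csf3r, at 632 against 949 and 518 against 680 UMIs per 10000 in this second division, and its part was not tested. In proliferating cancer cells, Csf3 was at 0.997 against 2.00 CPM and 1.03 against 2.04 CPM, while Csf1 differed by a log2 value of -0.02 and 0.01. The log2 differences of Csf3 were -1.01 (-1.29 to -0.73) and -0.99 (-1.32 to -0.68), with intervals that count each UMI as independent. The 1% of cancer cells with the most Csf3 held 93.9% and 80.0% of its UMIs, and 1 sGC Ctr cell held 103 of 669. The Csf3 difference may therefore rest on few cells, and their part was not tested.

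**Figure D4:**
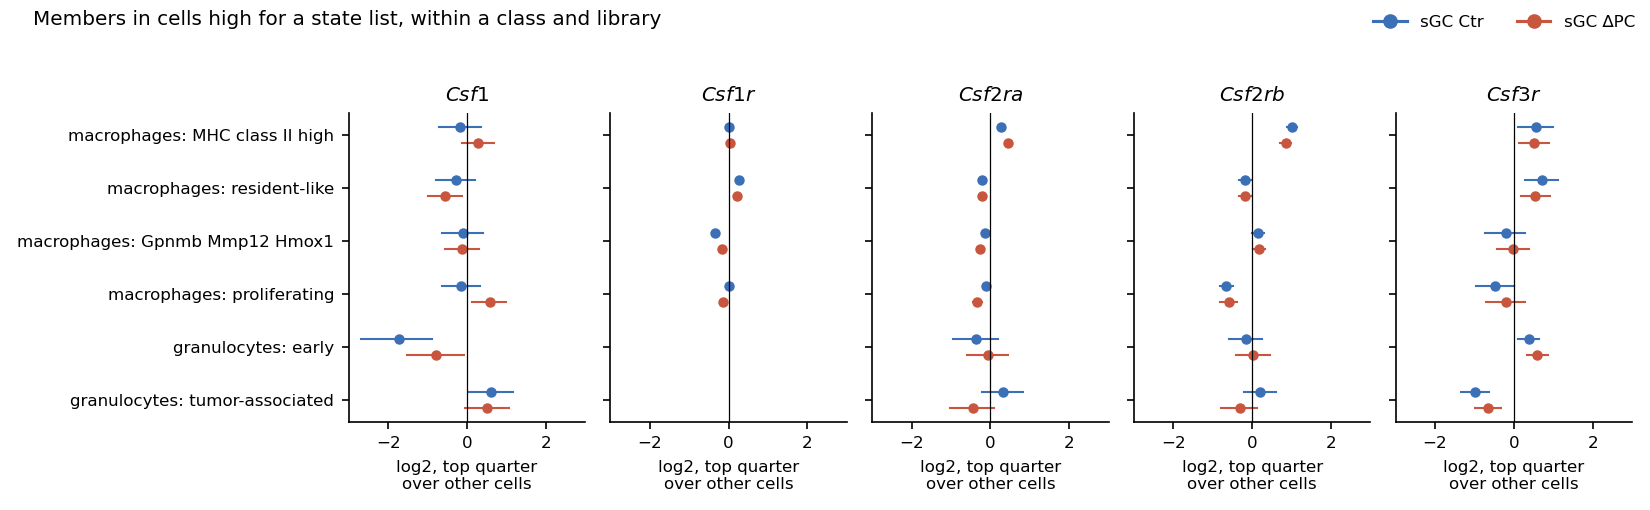
Log2 difference in level between the 25% of cells with the highest share of a state list and the other cells of the class, in each library, for the genes with enough UMIs; bars are exact 95% intervals for counting error. Csf2rb stands at 1.01 and 0.85 in MHC class II high macrophages, and in granulocytes Csf1 and Csf3r lie on opposite sides of 0 in both divisions.

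The genes around the receptors were read from 6 lists of pathway members in macrophages and granulocytes. Of the 10 related growth factor genes, 5 could be compared in macrophages and 1 was past 2-fold, beside 1.55% of all macrophage genes. It was Il11 (log2 ratio 1.08, on 31 and 61 UMIs); Kitl was at 0.80, Tslp at -0.84 and Lif at 0.52. Of the other ligands that use the common β chain, Il3 had 0 UMIs in all 10 classes and Il5 had 13 and 4 UMIs, all in cancer cells. Of the 10 genes that induce colony-stimulating factors, 7 could be compared and 1 was past 2-fold, again beside 1.55% of all genes. It was the alarmin Il33, at 6.47 and 19.0 CPM (log2 ratio 1.55, 1.30 to 1.81). In cancer cells, Il33 was at 61.6 and 94.3 CPM, Il11 at 14.1 and 18.5 CPM and Kitl at 80.2 and 85.2 CPM, and cancer cell marker RNA in macrophages was at 7.32% and 9.93%; its part was not tested. The remaining genes of the list included Il1b at 0.63 and Il1a at -0.16.

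Signaling genes downstream of the receptors were then counted. Of 16 adaptors and kinases of CSF1R, 16 were compared in macrophages and 0 were past 2-fold, with a median log2 ratio of -0.01. Tyrobp, the DAP12 adaptor, was at -0.24 and Inpp5d, the SHIP1 phosphatase, at -0.26, with Socs1 at 0.44 and Sos1 at 0.29. Of 16 genes of JAK-STAT signaling from the CSF2 and CSF3 receptors, 16 were compared and 0 were past 2-fold, with a median of 0.09; Pim1 was at 0.73, Cish at 0.49 and Socs3 at 0.37. Of 13 myeloid transcription factors, 12 were compared and 0 were past 2-fold, with a median of 0.11 and Egr1 (0.74), Cebpe (0.58), Klf4 (0.55) and Cebpb (0.47) at the top. Of all 11877 genes tested in macrophages, 1.55% were past 2-fold, so counts of 0 on lists this short do not set these genes apart. The median log2 ratio of all genes in macrophages was -0.05. Of the 6 partner receptors compared, 0 were past 2-fold, with a median of -0.09; Sdc1 was at 0.59, Il6st at 0.35, Csf2rb2 at -0.21 and Il3ra at -0.19.

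In granulocytes, 0 of the genes compared from the 6 lists were past 2-fold, beside 3.25% of all 2767 genes. Of the 10 growth factors, 0 had enough UMIs. The 7 adaptors and kinases compared had a median of -0.60, with Ptpn6 at -0.86, Cbl at -0.61 and Tyrobp at -0.60. Spi1, which encodes PU.1, was at 468 and 254 CPM, a log2 ratio of -0.88. Il1b, whose product induces Csf3 in other cells, was at 11279 and 6924 CPM (log2 ratio -0.70), and Tnf at -0.82. The 10 JAK-STAT genes compared had a median of -0.17 the 4 transcription factors -0.34 and the 6 inducers -0.25, beside -0.01 for all genes. The granulocyte marker list had a median of 654 and 428 UMIs per 10000 in these cells, and its part was not tested. The list ratios were not recomputed after thinning, under which Csf1 and Csf3r changed sign in this class.

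Finally, the genes whose pattern over the 20 points (10 classes in 2 libraries) was most like that of each member were read out, by Pearson correlation of log2(CPM + 1) among 13802 genes. These points share libraries and depth, so the values are a description. Csf3r was most like Trim30b (0.97), Fpr1 (0.96), the formyl peptide receptor, and Arg2 (0.96). Csf1r was most like Ccl9 (0.95), a chemokine, Cd68 (0.95), which was one of the gating markers of macrophages, and Atp6ap1 (0.93), a subunit of the vacuolar proton pump. Csf2rb was most like its paralog Csf2rb2 (0.95), Syk (0.91) and Lilra6 (0.90), and Csf2ra most like Gm14548 (0.96), Gm34084 (0.95) and Pirb (0.95), an inhibitory receptor of myeloid cells. Among the ligands, Il34 was most like Cdh2 (0.95), which encodes N-cadherin, Aspn (0.92) and Gm13889 (0.91). Csf1 was most like F3 (0.87), which encodes tissue factor, Klf5 (0.85) and Dnm3os (0.84). For Csf3 the highest values were lower, at 0.81 for Rtl10, 0.78 for Gm15411 and 0.77 for Pax5, and they rested on the few Csf3 UMIs outside cancer cells.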

How the data were processed

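Single-cell 3′ libraries of LLC tumors were read as the UMI counts per gene and barcode that the authors deposited, made with Cell Ranger 6.1.1 on mm10 per the submitters' processing notes; the deposited counts were not normalized. There was 1 library per genotype. Barcodes with under 10% mitochondrial UMIs and within 3 median absolute deviations in UMIs and genes were kept (81.4% and 87.8%, holding 476464534 and 412064152 UMIs). Cells were gated by marker lists without the 8 genes; cut values were set after the marker counts were seen. No doublet caller was run: 816 and 3778 cells with markers of 2 lineages, and 879 and 3546 with too few markers, were set aside. Within 20% above their gate lay 2.44% and 3.05% of macrophages, 3.27% and 5.03% of granulocytes and 7.78% and 10.43% of monocytes. All 10 classes had their own markers among the 10 genes highest by fold, from 1 in fibroblasts to 6 in macrophages, and 0 of another class. Because these markers set the gates, this follows from the gating and does not test the class names. Of the genes that gated osteoclast-like cells, Acp5 was found in 100% and 99.0% of them and Dcstamp in 51.9% and 22.9%.

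UMIs were summed per class and divided by the class total (CPM). Being counts of 3′ ends, they were not divided by length, and levels were compared between classes and not between genes. Intervals are exact (Poisson for levels, conditional binomial for ratios, Clopper-Pearson for shares); since PCR and capture are not covered, they hold for counting error only. Ratios were tabulated across all genes with at least 50 UMIs, without a test. Genes were named by rule: all 8 members and Csf2rb2; from each pathway list, at most 4 genes with the largest changes (some are not reported here); and for each member with 50 UMIs, the 3 genes most correlated with it over the points. The members, lists and gates were chosen with earlier results of these data known. Calculations used Python 3.11.15, numpy 2.4.6, scipy 1.17.1, pandas 2.3.3, scanpy 1.11.5, leidenalg 0.10.2 and matplotlib 3.10.9, and were tested on simulated data.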

Additional observations from a re-analysis of the deposited data

How the results depend on the processing

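The class with the highest level was the same for all 8 genes when cells with 200 genes were kept, when the gate limits were lowered or when droplets of 2 lineages were kept, and for 6 or 7 under the other alternatives. In sGC ∆PC the 200-gene setting kept 22498 cells, as the main filter did, with the same class sizes. It could therefore change sGC Ctr only. Csf2 is among the 8, though its counts cannot show which class was highest. Csf1r was highest in macrophages where clusters replaced the gates, with 45.9% of the cells of the osteoclast-like cluster in a gated class. Csf1r was also highest in macrophages where the osteoclast-like class was not made and at under 5% mitochondrial UMIs. The latter left 18 osteoclast-like cells in sGC Ctr, under the limit of 20. Neither of these settings ranked an osteoclast-like class, so they cannot show whether the order held. Csf2ra was highest in monocytes by the mean over cells, Csf3 in ECs after thinning and Csf2 in T cells with clusters. The log2 ratio of Csf1r in osteoclast-like cells went from -0.48 to -0.83 at under 5% mitochondrial UMIs, -0.71 with clusters, -0.79 by the mean over cells and -1.08 after thinning to 2000 UMIs, so that 1 gene and not 0 was past 2-fold in its highest class. After thinning, Csf1 in granulocytes went from -0.24 to 0.18 and Csf3r from -0.22 to 0.039. Il34 in pericytes ranged from -0.29 to 0.89. Of 126 alternative levels, 107 moved by less than their interval, and of 62 alternative ratios 52 kept their sign. Both counts include the 200-gene setting, which could not move the sGC ∆PC levels. The class with the highest share of cells with a UMI remained for 4 of 8 genes without thinning and for 6 at 1000 UMIs. The alternatives without an osteoclast-like class and with droplets of 2 lineages kept were chosen after seeing the data. In clusters, monocytes and dendritic cells gave no value, since no cluster was named so. The causes were not tested. No paired analysis was possible because there was 1 library per genotype and the labels carry no replicate numbers.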

Other observations

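Csf3 was also found in droplets that belonged to no class. Those with markers of 2 lineages held 35 UMIs in 17 of 816 cells in sGC Ctr and 220 UMIs in 87 of 3778 cells in sGC ∆PC, or 1.14 and 4.47 CPM, and those with too few markers held 28 and 48 UMIs in 4 and 16 cells. Together they account for the Csf3 UMIs that were outside cancer cells in sGC ∆PC, apart from small counts in macrophages, monocytes, fibroblasts and granulocytes. Csf2 had 0 and 2 UMIs in the first kind of droplet and 1 and 0 in the second.

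The class of mast cells and basophils was too small for comparison, with 5 and 2 cells. Csf2rb had 5 UMIs in 3 of them and 3 UMIs in 2 of them, and Csf1 had 4 and 6 UMIs.

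Csf1 in T cells had 5 and 25 UMIs (log2 ratio 1.86, interval 0.45 to 3.60), under the limit of 50 UMIs. Of the 25 UMIs, 1 cell held 6.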
